A study of Homo sapiens with 4 samples.

Results

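Chaperones, the proteins that help other proteins fold, were followed here through 34 genes for heat shock proteins, subunits of the cytosolic chaperonin and of prefoldin, co-chaperones of HSP90 and the heat shock factors. The genes were listed by name and found by symbol in the platform annotation. Of the 34, 28 had at least 1 probe set annotated to that gene alone, out of 11963 such genes on the array. HSPA8, TCP1 and PFDN6 appeared only in probe sets that name further genes, and the expression of AHSA1, HSPB11 and HSF2 was not analysed here. The 28 genes had 50 probe sets, of which 48 reached the median signal of their array in at least 1 array. All 28 genes passed that filter, and 7916 genes passed in all.

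The study compared 2 human leukemia cell lines, BV-173 and SUP-B15, which the series' design text calls Philadelphia chromosome-positive acute lymphoblastic leukemia lines. SUP-B15 came from such a leukemia and BV-173 from chronic myeloid leukemia in lymphoid blast crisis, and both carry BCR-ABL1, a constitutively active fusion kinase. They were cultured without STI571 (imatinib, an inhibitor of that kinase) or with 10 μmol/l of it for 16 hours. The 4 groups were therefore untreated BV-173, BV-173 with STI571, untreated SUP-B15 and SUP-B15 with STI571, with 1 array each and no replicates, and so few arrays limit how precise any value can be. Each line stands for 1 leukemia, so a difference between them is one between these 2 lines.

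Array medians ran from 95.5 to 115 signal units, and log2 signals of any pair of arrays correlated with r between 0.899 and 0.952 across probe sets, which are not independent. Of 8 B precursor markers, 6 had a usable probe set and all 6 lay above the array median in all 4 arrays. Of the markers of T, myeloid, erythroid, natural killer and megakaryocyte cells, 0 did so. Some marker sums moved with the lines. The 6 B precursor signals summed to 17552 and 26512 in BV-173 against 34287 and 45347 in SUP-B15, untreated first. The 3 natural killer signals summed to 417 and 859 against 97.6 and 46.2, and the 5 myeloid signals to 87.1 and 123 against 378 and 285. Their part in the line differences below was not tested. In bulk RNA of this kind, less RNA per cell and fewer cells with the RNA cannot be told apart.

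HSP70 chaperones bind unfolded stretches with the help of J proteins such as DNAJA1 and DNAJB1, and nucleotide exchange factors such as HSPH1 release the client. HSP90 takes over many signalling proteins, kinases among them, and BCR-ABL1 is a known HSP90 client. Prefoldin hands new actin and tubulin chains to the cytosolic chaperonin TRiC, a double ring of CCT subunits, while HSPD1 and HSPE1 form the chaperonin of the mitochondrial matrix. HSF1 is the transcription factor that drives many of these genes under stress, through heat shock elements made of repeated GAA units in alternating orientation.

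The heat shock element, the E box and the CCAAT box were the motifs looked for at the starts of these genes. The windows below are of the first 2. They are shown because both cytosolic HSP90 genes and all 3 mitochondrial members other than TRAP1 hold one or the other. Windows of HSPA8 and HSF2 are not printed. Promoter sequences were those of RefSeq on GRCh38.p14, from 250 bases before to 50 bases after each annotated start, and 29 of the 34 members had at least 1. An element of 3 units was searched as GAA, NN, TTC, NN and GAA in 1 run, or as the same run beginning and ending with TTC, with N for any base. These forms are each other's reverse complement and so cover both strands. It was found for 6 of the 29 members (20.7%), HSP90AA1, HSP90AB1, CHORDC1, HSPA8, DNAJA1 and HSPD1, against 0.608% of the 27305 genes with a promoter. With 2 units, GAA, NN and TTC or TTC, NN and GAA, which every 3-unit element also holds, the shares were 51.7% and 16.2%. The CCAAT box, searched as CCAAT or ATTGG, was found for 10 of the 29 members (34.5%), against 39.7% of all genes with a promoter. A match describes these letters only and is not evidence that a factor binds there. The windows read 5′ to 3′ on the strand of the gene, with the run of units in capitals.
HSP90AA1, chr14:102087111-102087140, minus strand: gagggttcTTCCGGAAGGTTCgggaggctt
HSP90AB1, chr6:44247770-44247799, plus strand: ggagcaggTTCTGGAAGATTCatgggctcc
HSP90AB1, chr6:44247823-44247852, plus strand: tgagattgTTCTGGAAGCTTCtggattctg
CHORDC1, chr11:90223083-90223112, minus strand: ccgGAAAATTCGCGAAGGTTCCTGAAacgc
DNAJA1, chr9:33025268-33025297, plus strand: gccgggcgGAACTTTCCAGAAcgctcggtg
HSPD1, chr2:197500061-197500090, minus strand: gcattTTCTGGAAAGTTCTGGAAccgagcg

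The longest run of the set, 23 bases, was that of CHORDC1, at −60 to −38, counting back from −1 at the base before the start. The element of DNAJA1 lay just inside its transcript, at bases 4 to 16. The elements of HSP90AB1 and HSPD1 lay before the annotated start that is furthest downstream of several.

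The E box CACGTG, a palindrome bound by MYC and its relatives, was present in the windows of HSPD1, HSPE1 and HSPA9, the 3 mitochondrial members of the HSP60, HSP10 and HSP70 classes. HSF2 had it as well, which made 4 of 29 members (13.8%), against 8.77% of all genes with a promoter. HSPD1 and HSPE1 are transcribed away from each other, and a single E box lies in the 104 bases between their starts. It lies at −22 to −17 of HSPE1 and at −88 to −83 of HSPD1. The stretch is given on the strand of HSPE1 and the shorter window of HSPA9 on its own, with the E box in capitals.
HSPD1 to HSPE1, chr2:197500275-197500378, plus strand: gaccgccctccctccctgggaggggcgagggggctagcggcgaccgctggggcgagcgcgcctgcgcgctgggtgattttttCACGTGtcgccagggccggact
HSPA9, chr5:138575403-138575432, minus strand: cgcccctcacccCACGTGgttggaggtttc

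Most of the measured chaperone genes were lower in SUP-B15 than in BV-173. Of the 28 measured members, 18 were called lower and 1 higher in SUP-B15 than in BV-173, and 9 were not called. Over all 7916 genes tested, 14.4% were called lower and 14.4% higher. The median difference, SUP-B15 minus BV-173, was −0.59 on the log2 scale for the members and −0.04 for all genes. In 22 members both SUP-B15 arrays lay below both BV-173 arrays, against 30.9% of all genes, and in 2 members both lay above, against 28.9%. Differences are of log2(signal + 24.5), where 24.5 is the 25th percentile over the 4 arrays and makes differences of dim genes come out too small. The signal used for a gene is that of its brightest probe set. Levels of different genes are not compared, since probe sets differ in how brightly they report.

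Calls came from a limma fit that had a term for the line and a term for STI571, at a Benjamini-Hochberg adjusted p under 0.05. Only 1 residual degree of freedom was left, and each gene's error came from the trend of scatter with brightness, not from the gene's own spread. Without that trend 3 members were called lower and 0 higher (10 at an unadjusted p under 0.05 in either direction), beside 2.8% and 5.14% of all genes, and without the treatment term 9 were called lower, beside 8.55%. Chaperone RNAs are abundant, and brightness moved with the line difference: in the brightest 25% of genes the median was −0.10 and 24.0% were called lower, and the part of brightness in the members' result was not tested. The median of the members was −0.45 between the untreated arrays and −0.73 between the treated ones.

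**Figure D1:**
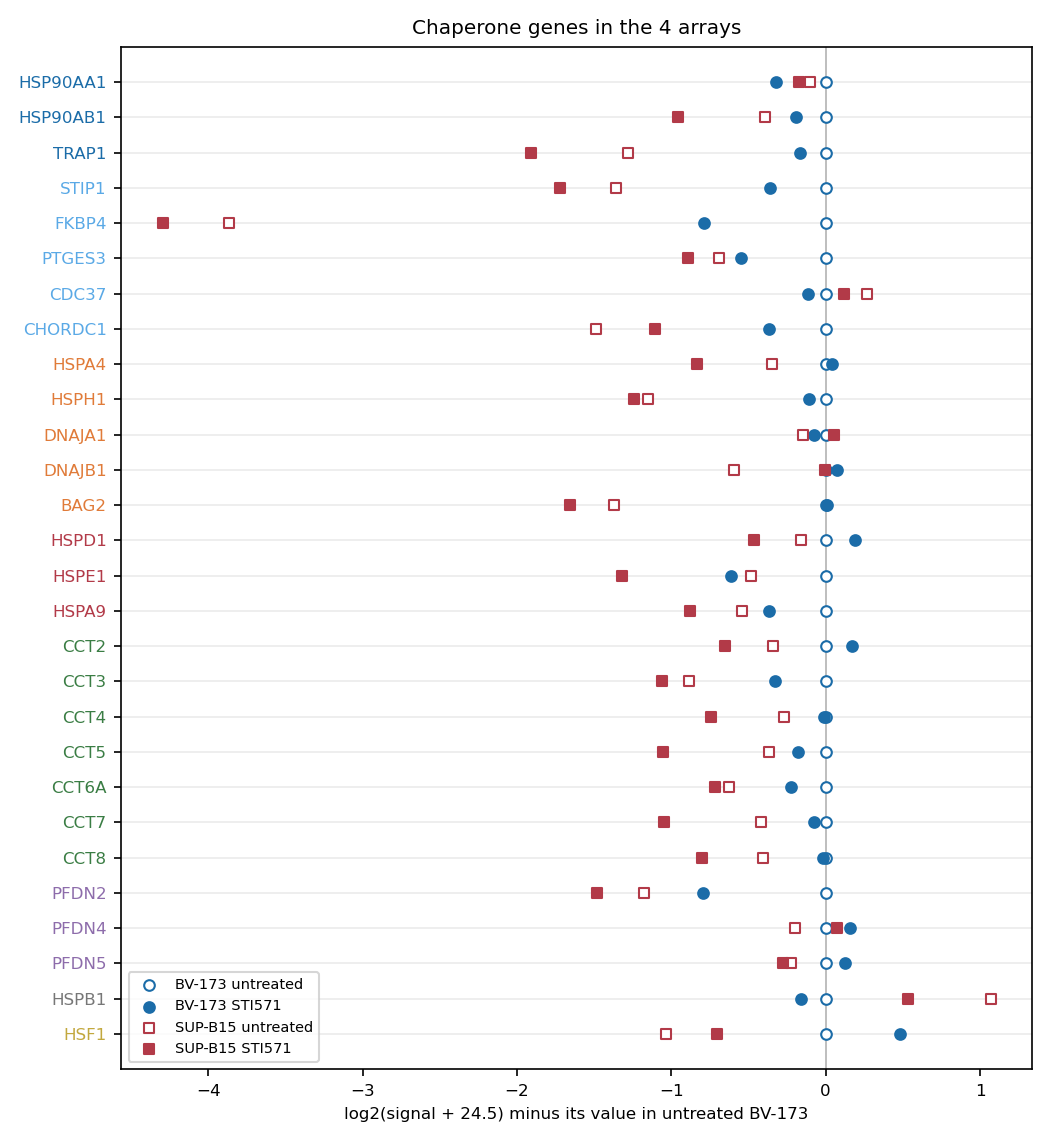
Each row is a chaperone gene, and each point 1 array, placed by log2(signal + 24.5) minus the value in untreated BV-173. Circles are BV-173 and squares SUP-B15, open without and filled with STI571, and label colours group the genes by role. In 22 of the 28 rows both squares lie to the left of both circles, furthest for FKBP4, and HSPB1 has both squares on the right.

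All 7 measured members that are subunits of the chaperonin TRiC lay lower in SUP-B15, by a narrow range of 1.42-fold to 1.75-fold. In all 7 both SUP-B15 arrays were below both BV-173 arrays. Of the 7, 6 were called. CCT3 differed most. It read 6604 untreated and 5263 treated in BV-173, against 3567 and 3156 in SUP-B15. Its log2 difference was −0.81 (SE 0.20, limma adjusted p = 0.000546).

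CCT7 went from 7061 and 6702 in BV-173 to 5268 and 3398 in SUP-B15, untreated first, a log2 difference of −0.70 (SE 0.21). CCT5 had 9042 and 7971 in BV-173 against 7013 and 4339 in SUP-B15. For both genes the treated SUP-B15 array was the lowest, and the lines did not overlap. CCT8 (−0.60), CCT2 (−0.58) and CCT6A (−0.56) were also called, with limma adjusted p between 0.0275 and 0.0291. CCT4 had −0.50 and an adjusted p of 0.0621 in the same limma fit. It passed with quantile normalization (0.0214), a common median (0.00561) and the 75th percentile filter (0.0451), while with no filter CCT2 (0.0816) and CCT8 (0.0886) did not pass. Without the treatment term 1 subunit, CCT3, was called, and without the intensity trend 0 were (CCT3 had 0.125). The standard errors, 0.20 to 0.22, are as large as the gaps between most subunits, so their order is not resolved.

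The last subunit of the ring, TCP1, is covered by 3 probe sets that also name SNORA29, a small nucleolar RNA hosted in the same gene. Their log2 differences between the lines were −0.59, −0.54 and −0.36, close to the range of the other subunits, and each of the 3 had its SUP-B15 signals below both BV-173 signals. The brightest read 8769 and 7787 in BV-173 against 6015 and 4976 in SUP-B15. These values were given no test and are not credited to TCP1 alone. CCT6B, a CCT gene on the list of other cytosolic chaperones, was dim, at 143 and 206 in BV-173 against 149 and 111 in SUP-B15. The lines overlapped there, and CCT6B was not called (log2 difference −0.36, limma adjusted p = 0.61).

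Of 3 measured members that are subunits of prefoldin, the hexamer that feeds TRiC, 1 was called, and differences between subunits were not tested. PFDN2 was called lower in SUP-B15, with signals of 2632 and 1508 in BV-173 against 1150 and 925 in SUP-B15 (log2 difference −0.93, SE 0.21, limma adjusted p = 0.000118). PFDN4 had −0.14 and PFDN5 −0.31, with limma adjusted p of 0.667 and 0.271. PFDN1 and VBP1, prefoldin subunits on the list of other cytosolic chaperones, stood at 0.16 and 0.14 without being called (limma adjusted p = 0.686 and 0.667). PFDN4 read 2263 and 2531 in BV-173 and 1973 and 2386 in SUP-B15, so that its arrays overlapped between the lines. The brighter of the PFDN6 probe sets also names the microRNA gene MIR6834. It had 692 and 672 in BV-173 and 750 and 349 in SUP-B15, where only the treated SUP-B15 array stood low.

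Among the HSP90 co-chaperones, FKBP4 was the member furthest apart. FKBP4 encodes FKBP52, a peptidyl-prolyl isomerase that joins HSP90 on steroid receptors. Its signal in BV-173 was 1923 untreated and 1103 treated, against 109 and 74.6 in SUP-B15. That is 12.9-fold between the lines (log2 difference −3.69, SE 0.29, limma adjusted p = 1.41e-35), with no overlap.

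The other FKBP4 probe set had 938 and 613 in BV-173 against 28.3 and 31.7 in SUP-B15. Both SUP-B15 values lie near the added 24.5, so the size of that difference is set by it and is not given. FKBP4 was the 1 member whose signal lay below the array median in SUP-B15, so it passed the filter through BV-173 alone. With no filter its place among the called genes held. Over all settings tried the log2 difference lay between −4.00 and −3.04 and the largest adjusted p was 0.0105 by limma.

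STIP1, the adaptor known as HOP that links HSP70 to HSP90, was called lower as well, at 4317 and 3357 in BV-173 against 1670 and 1294 in SUP-B15 (2.56-fold). Its other probe set gave 1.80-fold. CHORDC1, a zinc-binding HSP90 partner with the 23-base run shown above, had 3871 and 2998 in BV-173 against 1365 and 1789 in SUP-B15 (2.16-fold, limma adjusted p = 9.99e-07). For both genes every SUP-B15 signal was below every BV-173 signal.

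PTGES3, the co-chaperone p23 that stabilises the closed form of HSP90, had a log2 difference of −0.51 (SE 0.22) and a limma adjusted p of 0.0639. That value passed with quantile normalization (0.0227), a common median (0.00214) and the 75th percentile filter (0.0491). CDC37, which brings kinases to HSP90, ran the other way without being called. It read 1078 and 992 in BV-173 against 1302 and 1175 in SUP-B15 (log2 difference 0.25, limma adjusted p = 0.428).

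Of the 3 HSP90 genes among the members, 2 were called. HSP90B1, on the list of endoplasmic reticulum chaperones, was not (log2 difference −0.21, limma adjusted p = 0.48). HSP90AA1, the inducible cytosolic form, had 29035 and 23212 in BV-173 and 27037 and 25802 in SUP-B15, a log2 difference of 0.02 (SE 0.24), and the lines overlapped. Its sign was not settled, since the difference was −0.10 with a common median and −0.089 when its probe sets were averaged. HSP90AB1, the constitutive form, was called lower in SUP-B15, from 18200 and 15893 to 13837 and 9354 (−0.58, limma adjusted p = 0.0337; 0.104 with no filter). Its other probe set gave −0.79. The difference of the 2 genes' line effects was not tested.

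TRAP1, the mitochondrial HSP90, stood further apart, at 4362 and 3879 in BV-173 against 1782 and 1142 in SUP-B15. That is 2.85-fold (log2 difference −1.51, SE 0.21, limma adjusted p = 6.2e-12), and both SUP-B15 signals were under both BV-173 signals.

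Of the 5 measured genes of the HSP70 system 3 were called lower in SUP-B15. BAG2, a co-chaperone that holds back client ubiquitination, had 1250 and 1258 in BV-173 against 469 and 379 in SUP-B15 (2.87-fold). HSPH1, the exchange factor HSP110, had 8376 and 7785 in BV-173 against 3761 and 3534 in SUP-B15 (2.21-fold, with 1.94-fold from its other probe set). In both genes the gap between the lines was far wider than the gap between treated and untreated arrays.

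HSPA4, a further HSP110-class exchange factor, was called at a log2 difference of −0.61 (limma adjusted p = 0.0179). That call was lost when its 4 probe sets were averaged (−0.40, limma adjusted p = 0.153) and with its gene-specific probe set alone (−0.28, 0.408). The J proteins were not called. DNAJB1 had a log2 difference of −0.34 (limma adjusted p = 0.273) and DNAJA1 of −0.01 (0.975), and with its gene-specific probe set DNAJA1 stood at 0.25. The 3 probe sets that name HSPA8, the constitutive HSP70, together with SNORD14C and SNORD14D had log2 differences of −0.31 to −0.20, untested.

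In the mitochondrial matrix, HSPE1 and HSPA9 were called lower in SUP-B15 and HSPD1 was not. HSPE1, the HSP10 lid of the chaperonin, had 8031 and 5237 in BV-173 against 5723 and 3209 in SUP-B15 (log2 difference −0.59, SE 0.21, limma adjusted p = 0.0165). The values overlapped, since untreated SUP-B15 lay above treated BV-173. HSPA9, the mitochondrial HSP70, had −0.53, and its other probe sets −0.71 and −0.46. HSPD1, the HSP60 ring, had −0.41 (SE 0.24, limma adjusted p = 0.203) and −0.54 from its other probe set, and it passed with a common median (−0.54, adjusted p = 0.00183 by limma).

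HSPB1, the small heat shock protein HSP27, was the 1 member called higher in SUP-B15. It read 8579 in untreated and 7661 in treated BV-173, against 18023 in untreated and 12405 in treated SUP-B15, which is 1.84-fold (log2 difference 0.88, SE 0.22, limma adjusted p = 0.00035). Both SUP-B15 arrays were above both BV-173 arrays. HSF1, the stress-responsive transcription factor, was called lower in SUP-B15 by 2.16-fold, with 918 and 1292 in BV-173 against 435 and 553 in SUP-B15. Its dimmer probe set gave −0.49 on the log2 scale and was not called in a fit of every probe set (limma adjusted p = 0.451).

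**Figure D2:**
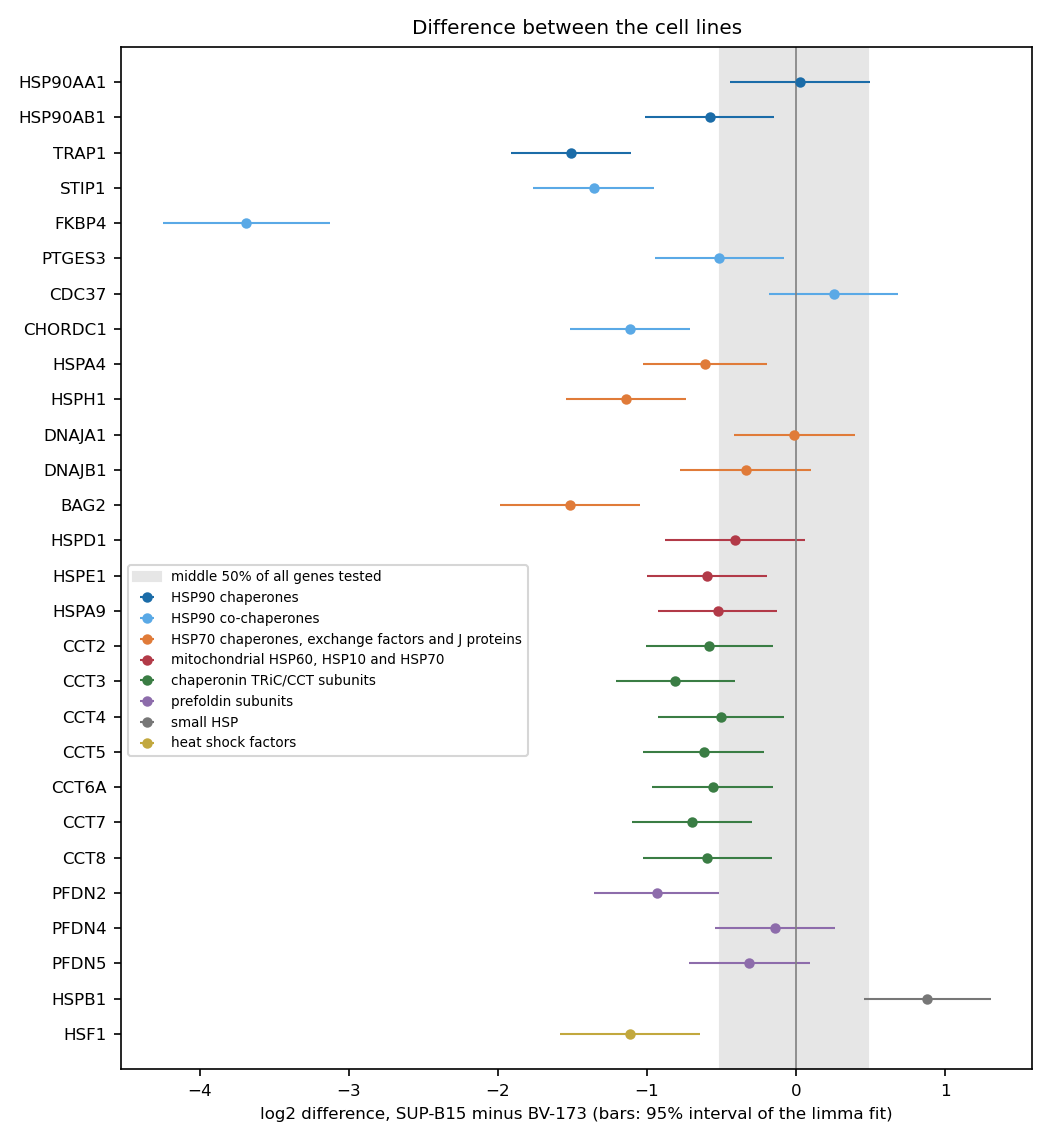
Points are the log2 differences SUP-B15 minus BV-173 of the 28 genes, with bars for the 95% interval of the limma fit, coloured by role. The grey band holds the middle 50% of all genes tested. The 7 CCT subunits lie close together at −0.81 to −0.50, FKBP4 lies furthest to the left at −3.69, and HSPB1 is the 1 gene whose interval lies wholly above 0.

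The other comparison asked how the chaperone genes responded to STI571. HSPE1, which fell, was the 1 member of 28 that passed the test for a change shared by both lines, and 0 members were called higher. Over all genes 1.62% were called lower and 1.4% higher, 3.02% in all, so 1 of 28 is close to that background. HSPE1 fell from 8031 to 5237 in BV-173 (1.53-fold) and in SUP-B15 from 5723 to 3209 (1.78-fold). Its mean log2 change was −0.72 (SE 0.21, 95% interval −1.12 to −0.32, limma adjusted p = 0.0202).

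The HSPE1 call held with both other normalizations, both other pseudocounts and both other filters (limma adjusted p = 0.00907 to 0.0395). It was lost with the mean of probe sets (0.0594), where HSPE1 keeps its 1 probe set and the error of the fit changes, without the cell line term (1) and without the intensity trend (0.598). Without the cell line term or without the trend, 0 of all 7916 genes were called for STI571, so those fits do not single out HSPE1. At an unadjusted p under 0.05, 4 members were lower, HSPE1, PFDN2, FKBP4 and CCT5 (6.08% of all genes were), and 0 were higher.

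Changes were small, and most had a negative sign. In 18 of 28 members (64.3%) the signal was lower with STI571 in both lines, against 26.5% of all genes and 31.6% of the brightest 25%. In 3 members it was higher in both. The 3 were DNAJB1, PFDN4 and HSF1. The share lower in both lines was also 64.3% in the list of endoplasmic reticulum chaperones described below. It was 54.5% for the actin and tubulin genes, 50% for the mitochondrial list and 20.7% for the other cytosolic chaperones. The members had a median change of −0.14 for BV-173 and −0.31 for SUP-B15, beside 0.05 and −0.01 over all genes. A common median, which shifts all genes to −0.11 in BV-173 and 0.08 in SUP-B15, gave members −0.31 and −0.20, so which line had the more negative median depends on the scaling. With it 17 members were negative and 1 positive in both lines. No member changed 2-fold in either line, where 11.5% of all genes did so in BV-173 and 9.77% in SUP-B15. In the brightest 25% of genes the shares were 2.58% and 2.12%, and 0 of 28 is close to these. Single-line changes have no test.

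PFDN2 had the smallest p after HSPE1, though FKBP4 had the more negative mean. The signal of PFDN2 went from 2632 to 1508 in BV-173 and, in SUP-B15, from 1150 to 925, a mean log2 change of −0.55 (95% interval −0.97 to −0.13, limma adjusted p = 0.174). FKBP4 went from 1923 to 1103 in BV-173 and, in SUP-B15, from 109 to 74.6 (mean −0.61, adjusted p = 0.331 by limma). In SUP-B15 both signals are low, and the change there rests on a difference of dim values.

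The 7 CCT subunits among the members were not called for STI571. Their median was −0.07 for BV-173 and −0.39 for SUP-B15, and all 7 were negative in SUP-B15 (6 with a common median, which gave medians of −0.25 and −0.28). CCT5 went from 9042 to 7971 in BV-173 and, in SUP-B15, from 7013 to 4339 (mean −0.44, SE 0.21, limma adjusted p = 0.347). CCT7 had −0.07 in BV-173 beside −0.63 in SUP-B15, CCT4 −0.01 and −0.47, and CCT8 −0.02 and −0.39. CCT3 and CCT6A had the more negative value in BV-173. Whether the lines differ in this was not tested.

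In the HSP90 system, the change of HSP90AB1 was −0.20 in BV-173 beside −0.56 in SUP-B15 and that of TRAP1 −0.17 and −0.63, with limma adjusted p of 0.537 and 0.416. STIP1 had −0.36 in both lines. HSP90AA1 had a mean of −0.20 with a 95% interval from −0.67 to 0.28, and its 4 probe sets lay between −0.49 and −0.20. CHORDC1 was lower in BV-173, from 3871 to 2998, and higher in SUP-B15, from 1365 to 1789. PTGES3 had −0.55 and −0.20.

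The HSP70 genes and their partners were not called for STI571. HSPH1 had −0.11 and −0.09, and its 95% interval for the mean ran from −0.50 to 0.31. DNAJB1, a widely used reporter of the heat shock response, went from 1129 to 1191 in BV-173 and, in SUP-B15, from 738 to 1125 (mean 0.33, limma adjusted p = 0.645). HSPA9 had −0.37 and −0.34. HSPB1 was not called either, at 18023 untreated and 12405 treated in SUP-B15 and 8579 and 7661 in BV-173 (limma adjusted p = 0.582).

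HSPD1 and HSPE1 share the interval shown above, and their probe sets did not move by the same amount. The brightest HSPD1 probe set read 29014 and 33142 in BV-173 and 25947 and 21005 in SUP-B15, a mean of −0.06. Its other probe set read 17946 and 14673 in BV-173 and 14350 and 8692 in SUP-B15, a mean of −0.51, nearer to the −0.72 of HSPE1. Neither HSPD1 probe set was called when every probe set was fitted (limma adjusted p = 0.968 and 0.265). Of the other measured genes with a 3-unit heat shock element, HSP90AA1, HSP90AB1, CHORDC1 and DNAJA1 were not called for STI571 either, with means of −0.38 to 0.06.

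**Figure D3:**
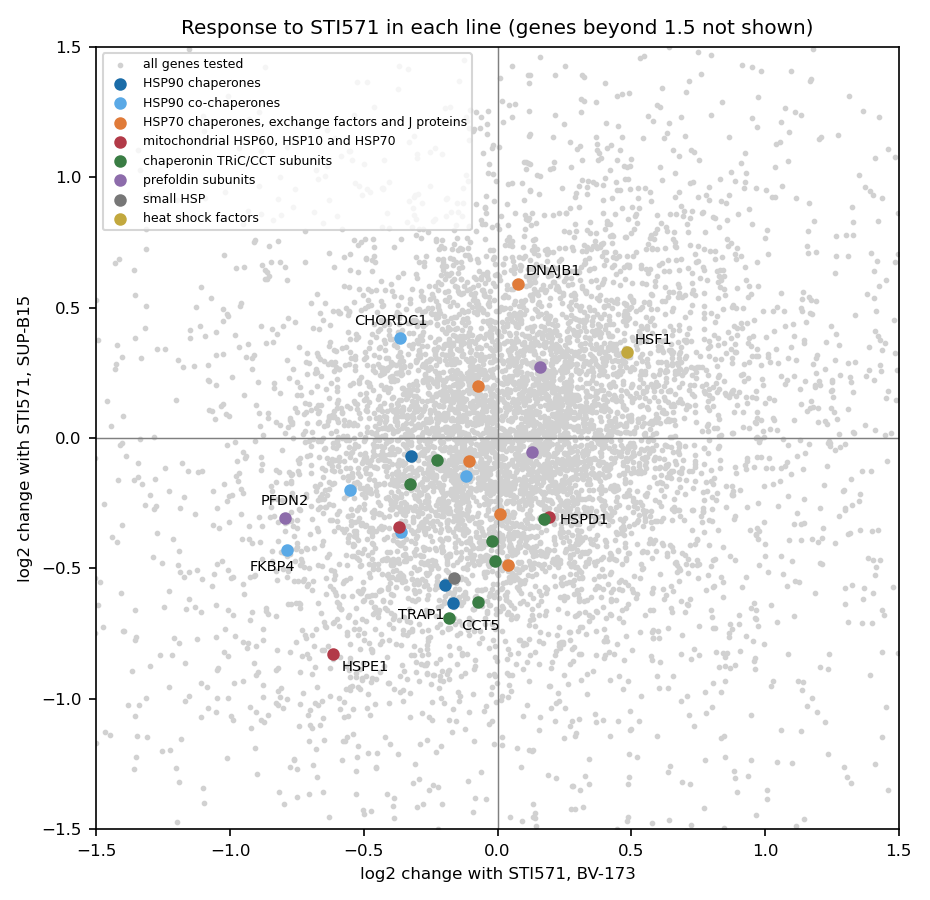
Each point is a gene, placed by its log2 change with STI571 in BV-173 (horizontal) and in SUP-B15 (vertical). Grey points are the genes tested, without those beyond the limits of the axes, and coloured points the chaperone genes by role. HSPE1 lies at −0.61 and −0.83, the most negative mean among the chaperone genes, and 18 of the 28 chaperone genes lie in the lower left quadrant.

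The probe sets of a gene share the RNA of the array, so they test the probes and not the cells. Of the 15 members with several kept probe sets, all probe sets gave the same sign of the line difference in 13, the exceptions being HSP90AA1 and DNAJA1, and the same sign of the mean STI571 change in 12. The exceptions there were HSPA4, CCT6A and HSF1. The range over a gene's probe sets had a median of 0.21 for the line difference and 0.17 for the STI571 change, about the size of the standard errors. HSF1 disagreed most. Its brighter probe set went from 918 to 1292 in BV-173 and, in SUP-B15, from 435 to 553, while the dimmer one went from 245 to 135 and from 161 to 93.3. The direction of HSF1 with STI571 was therefore not settled, and averaging both probe sets gave −0.15.

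**Figure D4:**
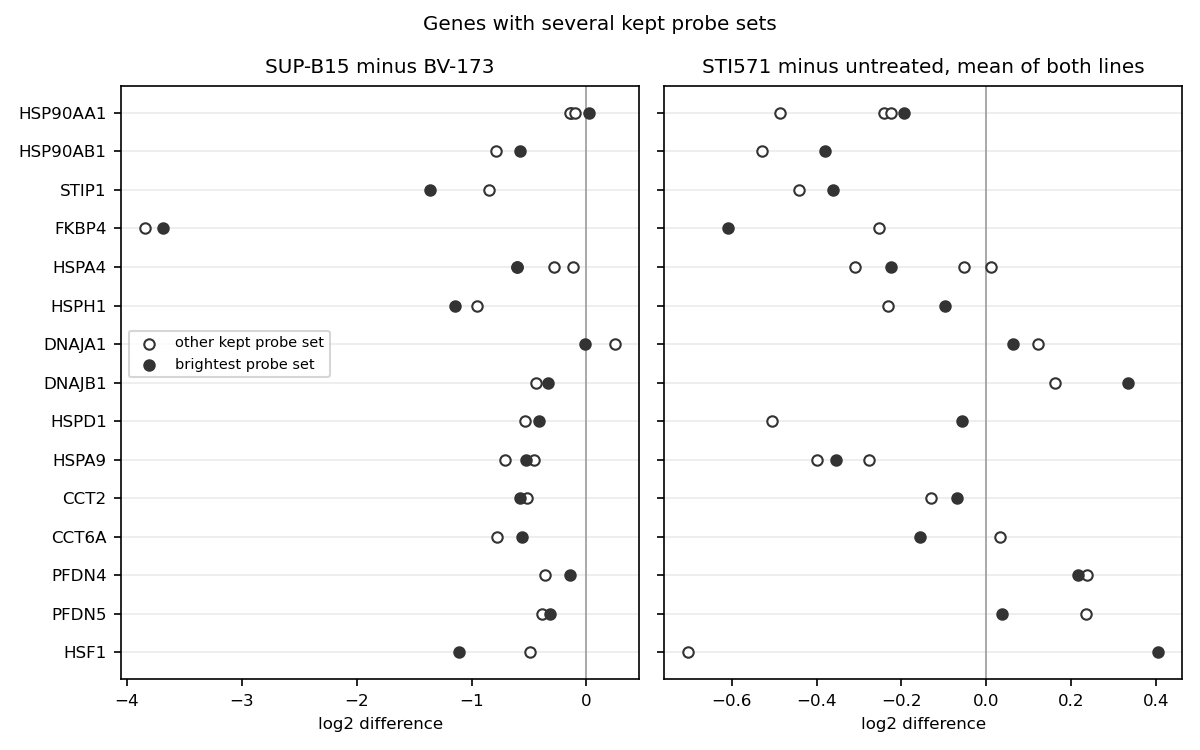
Rows are the 15 chaperone genes with several kept probe sets. Points are probe sets, filled for the brightest, placed by the log2 difference between the lines (left) and by the mean log2 change with STI571 (right). Both FKBP4 probe sets lie below −3.6 on the left, and the 2 HSF1 probe sets lie on opposite sides of 0 on the right.

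Further genes of protein folding gave a context for these values. Of 29 other cytosolic chaperones and co-chaperones measured, 4 were called lower (13.8%) and 1 higher in SUP-B15, with a median difference of 0.08. Over all genes 14.4% were called lower and 14.4% higher, so 4 of 29 is close to that background. STUB1, the ubiquitin ligase CHIP that works with HSP70, had −0.97 and PPID, the cyclophilin partner of HSP90, −0.87. BAG4 had −1.94, the HSF1-binding protein gene HSBP1 −0.72 and BAG5 1.01. The BAG4 signal was 383 and 393 in BV-173 against 88.8 and 77.1 in SUP-B15, below the array median, so it passed the filter through BV-173 alone. The HSBP1 call was lost with the mean of probe sets (−0.33, limma adjusted p = 0.219), and with gene-specific probe sets its sign turned (0.058). For STI571, 0 of the 29 were called by limma (also 0 at an unadjusted p under 0.05), beside 3.02% of all genes. The largest mean changes each way were those of FKBP5 (−1.03), HSBP1 (−0.37), DNAJB5 (0.95) and DNAJA4 (0.91), of which all but HSBP1 were dim.

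Of 10 mitochondrial chaperones and proteases, 4 were called lower in SUP-B15 (40%) and 0 higher, with a median of −0.55. Over all genes 14.4% were called each way. GRPEL1, the exchange factor of HSPA9, had −0.98 and the mitochondrial J protein gene DNAJA3 −0.89. The proteases CLPP and LONP1 had −0.55 and −0.56, calls that were lost with quantile normalization (limma adjusted p = 0.0973 and 0.0854). For STI571 0 of the 10 were called (also 0 at an unadjusted p under 0.05 in the limma fit), beside 3.02% of all genes. The largest mean changes were those of CLPX and YME1L1 (0.12 each) and of CLPB (−0.56) and CLPP (−0.36). CLPB went from 85.1 to 204 in BV-173 and, in SUP-B15, from 136 to 10.8, dim signals with a limma adjusted p of 0.851.

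Of 14 chaperones of the endoplasmic reticulum, 1 was called lower (7.14%) and 3 higher in SUP-B15, and their median was 0.01. Again, 14.4% of all genes were called each way. SDF2L1 was lower by 0.95 on the log2 scale, and HSPA5, the BiP chaperone, P4HB, a protein disulfide isomerase, and HSPA13 were higher by 0.95, 0.64 and 0.60. The line calls of P4HB and HSPA13 were lost with a common median (limma adjusted p = 0.127 and 0.227) and with the mean of probe sets (0.323 and 0.49). P4HB was also called for STI571, at −1.86 in BV-173 beside 0.04 in SUP-B15 (limma adjusted p = 0.000924). It had 0.265 with the mean of its probe sets and 0.706 without the intensity trend. The fall was in BV-173 alone, so the call does not describe a change shared by both lines. The P4HB arrays overlapped between the lines, since treated BV-173 stood low. Of the 14, only P4HB was called for STI571, beside 3.02% of all genes. With STI571 HSPA5 went from 3940 to 1952 in BV-173 and, in SUP-B15, from 5823 to 4986 (limma adjusted p = 0.0731, and 0.0407 with the 75th percentile filter), and DNAJB9, a J protein of BiP, had changes of 0.41 and 1.11 (0.0929). Of 11 actin and tubulin genes, whose products TRiC folds, 2 were called lower (18.2%) and 2 higher in SUP-B15, beside 14.4% of all genes each way. TUBG1 had −0.89, TUBA4A 1.92 and TUBA1A 1.32, and the median of the list was −0.12. TUBB6 read 1171 and 811 in BV-173 against 63.0 and 4.7 in SUP-B15, where it was dim, so it passed the filter through BV-173 alone. Its line difference of −4.31 depends on the pseudocount, being −5.67 with 1 and −3.06 with 98. With STI571 TUBA4A fell, with log2 changes of −1.21 and −0.77, and TUBA1A rose, with 1.25 and 0.18 (limma adjusted p = 0.00212 and 0.0204). The TUBA1A call was lost with a common median (0.106). TUBB6, with a mean of −1.05, and the dim TUBB2A, with 0.98, did not pass (limma adjusted p = 0.124 and 0.658), while with a pseudocount of 1 TUBB6 did (−2.01, 0.0208).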

How the data were processed

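Biotin-labelled total RNA was hybridised to 1 oligonucleotide array per group, per the labels' protocols. GCOS 1.3 is named in the submitters' processing notes, while the way of summarising probes is not given in the sources used here. Linear signal intensities, 1 for each probe set, are what the authors deposited. The 2%-trimmed mean was 500.2 in every array, so values had been scaled by array. Of 22277 probe sets, 62 were controls, 19064 named 1 gene, 1043 several and 2108 none, and only those with 1 gene were tested. Symbols matched RefSeq (GRCh38.p14) for 19052 of them, with 0 changed.

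The brightest probe set that reached the 50th percentile of an array stood for a gene. The fit used limma 3.58.1 in R 4.3.3 on log2(signal + 24.5), with cell line and treatment as terms and an intensity trend. Cell line pairs the treated and untreated arrays. The prior degrees of freedom were infinite. Tests were two-sided and adjusted over 7916 genes, and the fit was tested on simulated data. Members, lists and tests were chosen with earlier results of these data known. All 28 measured members are named. Of each list of other genes, called genes (at most 6) and the 2 largest mean STI571 changes each way are named. PFDN1, VBP1, CCT6B and HSP90B1 of these lists are named as well, beside their relatives among the members.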

Additional observations from a re-analysis of the deposited data

Results flagged for a closer look

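For 7 of 28 chaperone genes the change with STI571 had opposite signs in the 2 lines (10 with a common median), as it had for 44.7% of all genes. With 1 pair of arrays per line the difference between the lines was not tested, and small changes take opposite signs easily. The response of SUP-B15 minus that of BV-173 was 0.75 on the log2 scale for CHORDC1, the widest gap. It was −0.52 for HSPA4, −0.50 for HSPD1 and −0.48 for CCT2, each higher with STI571 in BV-173 and lower in SUP-B15. It was −0.30 for BAG2, −0.18 for PFDN5 and 0.27 for DNAJA1.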

How the results depend on the processing

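The alternatives were a common median, quantile normalization, pseudocounts of 1 and 98, a filter at the 75th percentile or none, probe sets averaged per gene, gene-specific probe sets only (15 of the 28 genes), a fit of every probe set, fits without the other term or without the intensity trend, and a robust prior. Counting probe sets of several symbols under their member was added after the data were seen.

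The count of members called lower with STI571 went from 1 to 0 with the mean of probe sets and with gene-specific probe sets (where HSPE1 has none). Over all genes 61 of 7916 and 74 of 4865 were called lower there. The members' count was also 0 without the cell line term and without the trend, where 0 of all 7916 genes were called either way. At an unadjusted p under 0.05 in limma, 5, 3, 0 and 1 members passed, in that order, with no share over all genes taken. The 18 members called lower in SUP-B15 became 9 without the treatment term and 3 without the trend, and the 1 called higher, HSPB1, became 0 without the trend. With gene-specific probe sets 10 were called lower and 0 higher, beside 13.4% and 14.1% of all genes with such a probe set. Only 15 members were measured there, 11 of them among the 18, and HSPB1 was not. The call lost was that of HSPA4. At 1.5-fold, 3 members changed in BV-173 while 5 did in SUP-B15, beside 27.2% and 26.1% of all genes and 12.5% and 13.1% of the brightest 25%, and with the added probe sets 1 changed 2-fold in SUP-B15, PFDN6. The members' medians kept their sign under each setting that could move them.

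Uncalled values changed sign for STI571 in CHORDC1 (−0.023, common median), HSPA4 (0.012) and CCT6A (0.033, gene-specific probe sets), HSF1 (−0.15, mean of probe sets), PPID (−0.022) and DNAJA3 (−0.023, common median) and DNAJB9 (−0.23, gene-specific). Between the lines they did so for HSP90AA1 (−0.10, common median; −0.089, mean of probe sets), DNAJA1 (0.12, mean; 0.25, gene-specific) and DNAJB9 (0.092, gene-specific). HSBP1, called lower, stood at 0.058 with gene-specific probe sets. A common median moved the median line difference of all genes from −0.04 to −0.15. With 1 array per group, no spread within a group can be given, and no detection calls were used.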

Other observations

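The stress-inducible HSP70 genes HSPA1A and HSPA1B are nearly identical, and the annotation names both for each of their probe sets. A probe set of the pair read 19.3 and 87.4 in BV-173 against 646 and 528 in SUP-B15, while another read 509 and 199 in BV-173 against 115 and 125 in SUP-B15. A further one, which also names HSPA1L, read 282 and 237 in BV-173 and 279 and 267 in SUP-B15. The log2 differences, SUP-B15 minus BV-173, were 3.12, −1.26 and 0.07, so these probe sets gave no common direction between the lines.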
